A study of Homo sapiens with 6 samples.

Results

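Integrin and laminin mRNAs were examined in the MDA-MB-453 line, derived from a human breast cancer, after knockdown of tRF-1-Ser, a small RNA derived from the 3′ end of a serine tRNA precursor. The genes were picked by a rule on symbols, which was chosen with earlier results of these data known. Rows of the count table named as an integrin alpha or beta gene or as a laminin alpha, beta or gamma chain gene were taken. Of 36517 genes, 37 are described, 26 for integrins and 11 for laminins. Cells carrying a lentiviral hairpin against tRF-1-Ser (shtRF, n = 3) were compared with cells carrying a control lentivirus (control, n = 3), all harvested at day 3. The study describes its lentiviral cells as stable lines, so the control cells carried a virus too, and 1 cell line stands behind the comparison. Its methods call the replicates biological without saying whether they were separate transductions or cultures, and p-values measure only the spread between these libraries.

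Integrins are cell surface receptors built from 1 alpha and 1 beta subunit, and they tie the extracellular matrix to the actin or keratin cytoskeleton. Laminins are matrix proteins of the basement membrane, each assembled from an alpha, a beta and a gamma chain. In mammary epithelium, laminins are bound mainly by integrins that hold the alpha subunits ITGA3 or ITGA6, the latter with ITGB4 in hemidesmosomes, the junctions that anchor epithelial cells to the basement membrane. The hairpin's target is not measured by mRNA libraries, so the group identity of these libraries rests on the labels. The study reports a qPCR check of knockdown in its cell lines, without tying that check to these libraries.

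Libraries held 63541413 to 78917459 counts, and the 37 genes together took 0.092% to 0.106% of them. Between 74.2% and 77.1% of counts from 1 to 4 were even, against 49.7% to 50.7% of counts of 1000 or more, so a low count may stand for fewer fragments than its size. Luminal epithelial markers summed to 10689 to 11532 CPM (counts per 1000000 of a library, corrected with TMM factors) in control and 13236 to 14597 CPM in shtRF, with 4 of 10 higher and 3 lower. Markers of other cell types were low. For 7 basal or myoepithelial markers the summed level was 13.9 to 14.5 CPM in control and 10.3 to 10.8 CPM in shtRF. Most of that was MYH11 (means of 7.86 and 6.11 CPM), and TP63 was at 2.88 and 1.98 CPM. MYH11, TP63 and KRT17 were called lower, while KRT5 and KRT14 were at most 0.318 and 0.159 CPM. For 7 fibroblast markers the sum was 29.9 to 35.8 and 20.8 to 21.5 CPM, nearly all of it COL1A1. For 5 endothelial markers it was at most 0.437 CPM. The 7 leukocyte markers summed to 4.50 to 5.43 and 5.91 to 8.30 CPM, mostly the lysosomal gene CD68, while the defining leukocyte gene PTPRC stayed at or below 0.0662 CPM. Of 5 platelet markers only GP1BA was above a trace, and PF4 and LUM, a fibroblast marker, had no count at all. These sums differed between the groups for luminal, basal, fibroblast and leukocyte markers, and their part in the differences described below was not tested. A change in RNA per cell and a change in the share of cells that express a gene cannot be told apart in such bulk libraries.

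With edgeR's quasi-likelihood test over 19628 genes, 15 of the 22 integrin and laminin genes that passed the low-count filter had an adjusted p under 0.05, 11 higher and 4 lower in shtRF. Among all tested genes 39.5% passed in either direction, 20.6% higher and 18.9% lower. That balance turned with other scalings: 4046 genes were higher and 3704 lower, against 3508 and 4174 with upper quartile factors and 2900 and 3803 with limma-trend on log2(RPKM + 1). The libraries of the 2 groups did not overlap for 18 of the 22 genes, against 48.7% of all tested genes. The median log2 fold change was 0.21 over the 22 genes and -0.003 over all tested genes. LAMA3 passed the filter only through its shtRF libraries, while ITGB7 was over the filter's level in 3 control and 2 shtRF libraries. The counts above thus describe the genes that were tested and are not evidence about the families. The remaining 15 genes were too low to test.

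**Figure D1:**
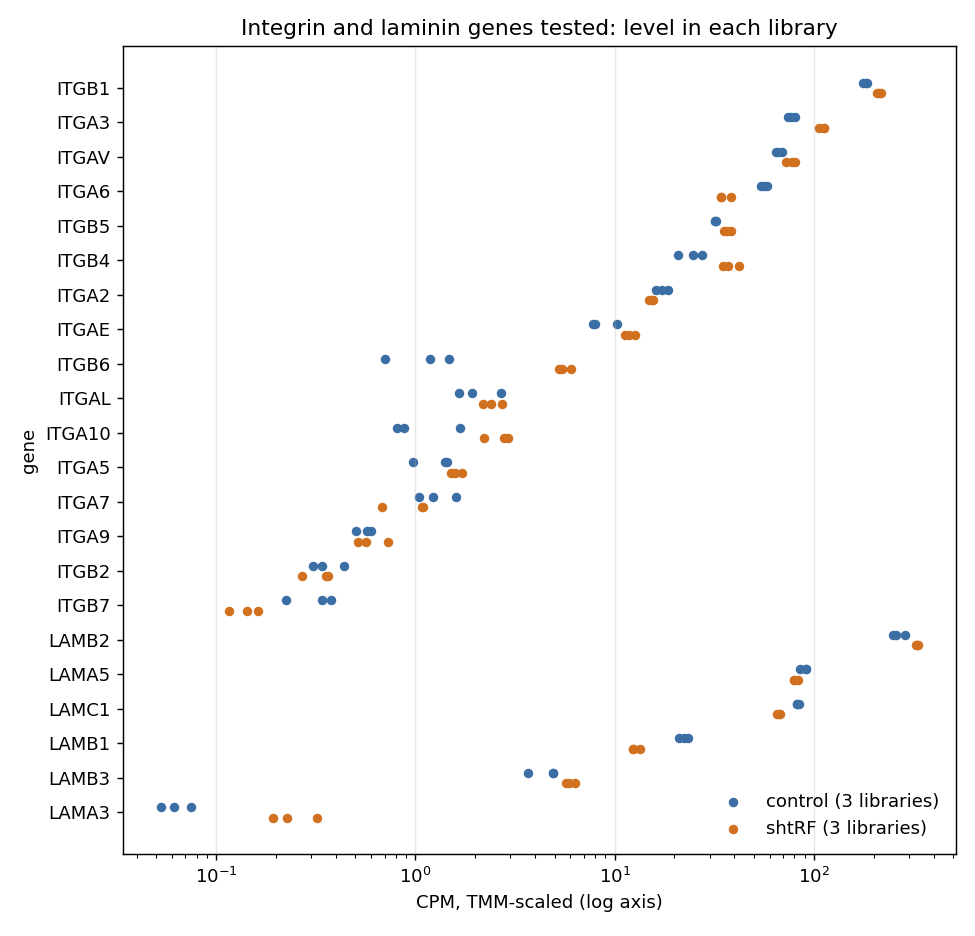
Level of each of the 22 tested genes (rows) in every library, in CPM on a log axis, with control in blue and shtRF in orange. The levels span LAMA3, at 0.053 to 0.32 CPM, up to LAMB2, at 251 to 333 CPM, and the 2 colours are apart for 18 of the 22 genes.

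Of the laminin chain genes described here, 6 passed the filter, and 3 were called higher and 3 lower, beside 39.5% of all tested genes called. This count includes LAMA3, which entered the test through its shtRF libraries alone and is given below as counts, with no test. LAMB3, the beta chain that assembles with LAMA3 in an epithelial laminin that anchors hemidesmosomes, rose. The chains of the general basement membrane laminins LAMA5, LAMB1 and LAMC1 fell, whereas LAMB2, the other beta chain that joins LAMA5 and LAMC1, rose. The sequences just before the start sites of LAMA3 and LAMB3, and of LAMB1 and LAMC1, which both fell, are shown first.

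The 250 bases before the RefSeq start site (GRCh38.p14) are printed 5′ to 3′ on the gene's strand. They are given for LAMA3 and LAMB3, whose chains assemble together, and for LAMB1 and LAMC1, which fell. The windows are chr18:23872770-23873019 (plus strand) for LAMA3, chr1:209652426-209652675 (minus strand) for LAMB3, chr7:108003162-108003411 (minus strand) for LAMB1 and chr1:183023170-183023419 (plus strand) for LAMC1. Capitals mark the AP-1 site TGANTCA and the GC box GGGCGG on either strand.
LAMA3: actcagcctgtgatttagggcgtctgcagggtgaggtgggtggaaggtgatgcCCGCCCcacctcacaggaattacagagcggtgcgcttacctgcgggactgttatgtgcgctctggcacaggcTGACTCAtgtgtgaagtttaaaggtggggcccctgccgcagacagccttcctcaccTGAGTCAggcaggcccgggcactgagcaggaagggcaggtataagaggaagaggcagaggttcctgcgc
LAMB3: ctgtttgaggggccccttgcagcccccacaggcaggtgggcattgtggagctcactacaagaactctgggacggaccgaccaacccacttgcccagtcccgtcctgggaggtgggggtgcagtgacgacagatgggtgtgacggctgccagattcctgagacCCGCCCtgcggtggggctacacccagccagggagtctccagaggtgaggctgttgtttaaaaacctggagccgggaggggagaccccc
LAMB1: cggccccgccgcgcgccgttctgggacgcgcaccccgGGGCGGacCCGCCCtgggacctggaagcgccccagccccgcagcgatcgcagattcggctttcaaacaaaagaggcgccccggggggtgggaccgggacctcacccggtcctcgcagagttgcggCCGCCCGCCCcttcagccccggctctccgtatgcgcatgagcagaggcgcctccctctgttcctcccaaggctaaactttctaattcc
LAMC1: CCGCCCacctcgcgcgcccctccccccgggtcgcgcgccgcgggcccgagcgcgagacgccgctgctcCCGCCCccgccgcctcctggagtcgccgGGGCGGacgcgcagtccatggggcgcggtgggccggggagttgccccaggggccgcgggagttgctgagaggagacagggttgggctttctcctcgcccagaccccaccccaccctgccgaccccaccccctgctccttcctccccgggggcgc

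The LAMA3 window held 2 AP-1 sites and 1 GC box and the LAMB3 window held 1 GC box. There were 4 GC boxes in the LAMB1 window and 3 in that of LAMC1, and the GC content was 60.4%, 64.0%, 70.4% and 79.6% in the order printed. Of 27305 windows of this length, 6.6% held an AP-1 site and 42.3% a GC box. In the 16 tested integrin and laminin genes with an entry, LAMA3 was the 1 gene with an AP-1 site and 10 held a GC box. The E-box CACGTG and the TATA box TATAAA, present in 6.5% and 11.1% of windows, occurred in 1 of the 16, ITGA6 in both cases. These letters describe the windows and were not tested for binding. The LAMA3 start site lies 183577 bases inside the gene as the count table draws it, since the gene has a long and a short form, whereas the other 3 start sites lie within 94 bases of the table's start. Gene counts do not separate those forms.

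LAMB3 (chromosome 1, 209614870 to 209652466; gene coordinates are on GRCh38) was at 4.93, 4.91 and 3.68 CPM in control and 5.92, 5.71 and 6.35 CPM in shtRF, which is 0.41 ± 0.13 on the log2 scale (SE; edgeR adjusted p = 0.0123), and the groups did not overlap. The lowest control library, replicate 3, carried part of that difference: without it the log2 fold change was 0.28 and the adjusted p 0.0723, and without shtRF replicate 3 the adjusted p was 0.0565. It also missed the threshold with limma-trend on log2(RPKM + 1) and log2(RPKM + 0.1) (adjusted p = 0.0899 and 0.107).

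LAMA3 (chromosome 18, 23689443 to 23955066), the alpha chain that assembles with LAMB3, had 4, 4 and 6 counts in control and 16, 22 and 12 in shtRF. The groups were apart, but these are small numbers. None of the control libraries and all 3 shtRF libraries were over the filter's level of 0.142 CPM, so the gene was tested because it was high in shtRF, and nothing is read from its fold change. Per exonic length the alpha chain was far below its partner. In every library the RPKM (counts per kilobase of exon, scaled to the library total) of LAMB3 was at least 50.7 times that of LAMA3. This ratio rests on those few counts, and its difference between the groups is not read, as it carries the fold change of LAMA3. The exonic length used for LAMA3 covers its long form. The alpha chain mRNA was the scarcer of the pair in both groups.

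LAMB1 (chromosome 7, 107923799 to 108003255), a beta chain of the widespread laminins, was at 23.4, 22.4 and 21.1 CPM in control and at 12.3, 12.3 and 13.4 CPM in shtRF (log2 fold change -0.81 ± 0.08, adjusted p = 1.64e-08). LAMC1 (chromosome 1, 183023460 to 183145592), the gamma chain of most laminins, was at 82.3, 84.8 and 82.1 CPM in control and 67.2, 67.5 and 65.3 CPM in shtRF, which is -0.32 ± 0.05 on the log2 scale (adjusted p = 3.82e-05). Neither gene's groups overlapped, and both kept their call in each of the 15 alternatives. LAMA5 (chromosome 20, 62307955 to 62367312), the most abundant laminin alpha chain here, was at 91.4, 91.0 and 85.6 CPM against 79.8, 83.8 and 79.3 CPM. That difference is small (-0.14 ± 0.05, adjusted p = 0.039) and near the threshold: it was not called without control replicate 1 (0.101) or 2 (0.0923), or without shtRF replicate 1 (0.0835) or 3 (0.157).

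LAMB2 (chromosome 3, 49121114 to 49133118), the beta chain with the highest level of the 37 genes per length, was at 288, 258 and 251 CPM in control and 330, 325 and 333 CPM in shtRF. The log2 fold change was 0.31 ± 0.06 (adjusted p = 1.45e-04), and the groups did not overlap although the control libraries spread more widely. As LAMB2 rose and LAMB1 fell, the RPKM ratio of LAMB2 to LAMB1 was 14.1 ± 0.468 in control and 30.8 ± 1.25 in shtRF (SD, n = 3). LAMB1 made up 6.46% ± 0.192 of the summed RPKM of the 4 laminin beta chain genes in control and 3.07% ± 0.121 in shtRF. LAMA5 held 99.6% ± 0.130 and 99.2% ± 0.146 of the laminin alpha chain RPKM, so in both groups nearly all alpha chain mRNA was of this gene.

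LAMB1 on chromosome 7 has LAMB4 20292 bases away on the same strand, which was too low to test. LAMC1 shares no exonic bases with another gene. For LAMB1 the shared part was 3.6%, mainly with a gene on the other strand that had at most 0.112 CPM in either group. LAMA5 shares 2.5%, mainly with ADRM1, which was higher in shtRF.

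**Figure D2:**
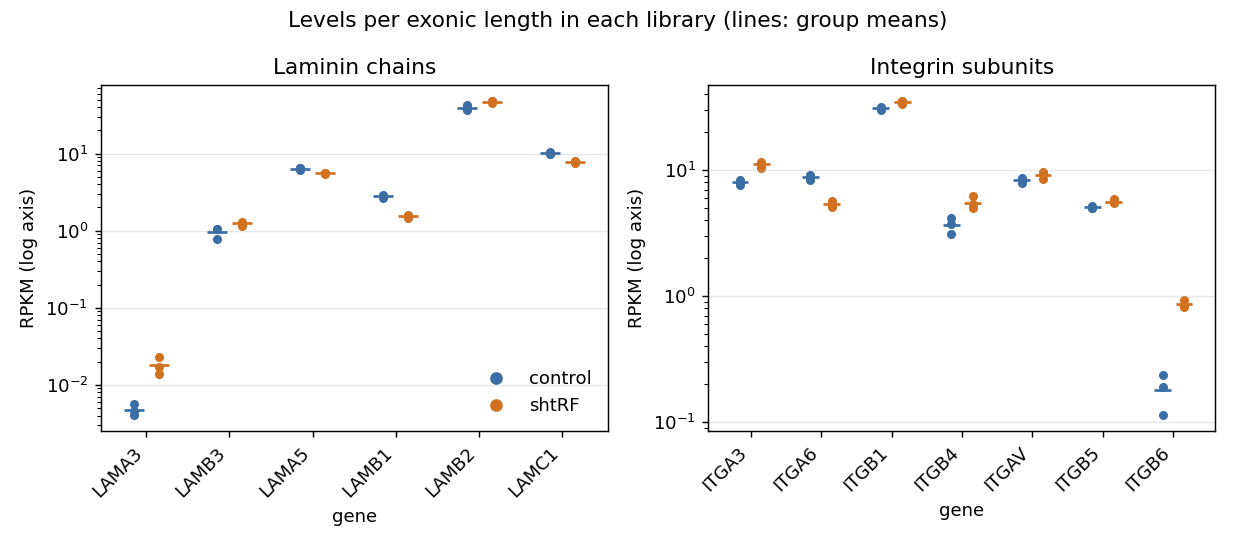
RPKM on a log axis of laminin chain genes (left) and integrin subunit genes (right) in each library, control in blue and shtRF in orange, with a line at each group mean. LAMB3 and the scarce LAMA3 lie higher in shtRF, while LAMB1 and LAMC1 lie lower. ITGA3 lies below ITGA6 on average in control but above it in shtRF, and that control order holds per length only.

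Among integrin genes, 8 of the 16 that were tested were higher in shtRF and 1 was lower, beside 20.6% and 18.9% of all tested genes. The 1 that fell was ITGA6, and the rises ranged from a slight one in ITGB5 to 4.93-fold in ITGB6. Partners are described together below, beginning with the receptors for laminin.

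ITGA3 (chromosome 17, 50055968 to 50090481), an alpha subunit of a laminin receptor with ITGB1, was at 81.0, 76.8 and 74.1 CPM in control and 113, 106 and 113 CPM in shtRF. ITGA6 (chromosome 2, 172427354 to 172506282), the other main laminin-binding alpha subunit of epithelium, was at 56.0, 58.2 and 54.3 CPM in control and 34.4, 34.3 and 38.3 CPM in shtRF. No library overlapped in either gene, and the directions were opposite. The log2 fold change was 0.52 ± 0.05 (SE; edgeR adjusted p = 1.03e-07) for ITGA3 and -0.65 ± 0.06 (adjusted p = 1.27e-08) for ITGA6. In RPKM the ratio of ITGA3 to ITGA6 was 0.964, 0.879 and 0.911 in control and 2.19, 2.06 and 1.97 in shtRF. Control cells thus held slightly less ITGA3 than ITGA6 mRNA per length, and shtRF cells about 2.07 times as much. The order in control rests on the exonic lengths used, 9802 bases for ITGA3 and 6533 for ITGA6. Without length, the control means were 77.3 CPM for ITGA3 and 56.2 CPM for ITGA6. Exons of other genes overlap 5.4% of the ITGA6 exons, mainly those of AC078883.4 on the other strand, which also fell (log2 fold change -0.42), and none of the ITGA3 exons.

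ITGB4 (chromosome 17, 75721328 to 75757818), the beta subunit of hemidesmosomes, was at 24.8, 27.6 and 20.8 CPM in control and 42.1, 34.9 and 37.0 CPM in shtRF. It rose by 0.64 ± 0.09 on the log2 scale (adjusted p = 2.94e-06), with no overlap between groups. ITGA6 is its only known alpha partner, so in this pair the beta mRNA rose and the alpha mRNA fell. The RPKM ratio of ITGB4 to ITGA6 was 0.419 ± 0.0441 in control and 1.03 ± 0.132 in shtRF (SD, n = 3), close to equal amounts in the latter.

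ITGB1 (chromosome 10, 32900319 to 33005792), the beta subunit with the most known alpha partners, was the most abundant integrin mRNA. Its values were 177, 184 and 185 CPM in control and 212, 209 and 217 CPM in shtRF, a small but clear rise of 0.22 ± 0.05 (SE; adjusted p = 0.00125). The RPKM of its 12 possible alpha partners summed to 0.907 ± 0.0409 of the ITGB1 value in control and to 0.818 ± 0.0201 in shtRF. Within that sum the share of ITGA3 was 28.7% ± 0.784 in control and 39.0% ± 0.652 in shtRF, while that of ITGA6 was 31.3% ± 0.639 and 18.9% ± 0.691. ITGAV held 29.6% ± 0.777 and 32.4% ± 0.257, and ITGA2, a collagen receptor subunit, 7.99% ± 0.544 and 6.70% ± 0.130. These shares are given per length with no test, and they describe mRNA and not assembled receptors.

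**Figure D3:**
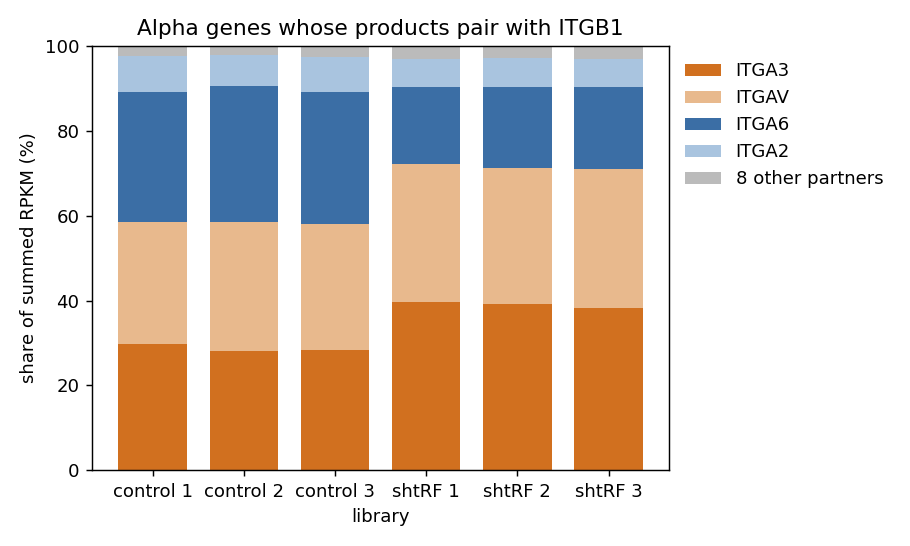
Share of each alpha gene in the summed RPKM of the 12 alpha genes whose products can pair with ITGB1, one bar per library. ITGA3 takes 28.2% to 29.6% of the sum in control and 38.3% or more in shtRF, and ITGA6 takes 30.8% to 32.0% in control and under 20% in shtRF.

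ITGB6 (chromosome 2, 160099666 to 160271888), the epithelial beta subunit that pairs with ITGAV to bind latent TGF-beta, rose more than any other integrin gene tested. It was at 0.707, 1.47 and 1.19 CPM in control and 5.27, 5.48 and 6.03 CPM in shtRF, or 2.30 ± 0.19 on the log2 scale (SE; adjusted p = 1.69e-09). Counts were 46, 111 and 95 against 370, 376 and 374, and relative to the group mean the control libraries spread more widely (1.12 ± 0.386 CPM) than the shtRF libraries (5.59 ± 0.395 CPM; SD, n = 3). It remained a minor partner: its RPKM was 0.0217 ± 0.00701 of that of ITGAV in control and 0.094 ± 0.00526 in shtRF.

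ITGAV (chromosome 2, 186590065 to 186680901), the alpha subunit of the receptors for RGD-bearing ligands such as vitronectin, was at 66.0, 69.4 and 64.5 CPM in control and 77.4, 72.8 and 80.5 CPM in shtRF. The log2 fold change was 0.21 ± 0.06 (adjusted p = 0.00539). ITGB5 (chromosome 3, 124761948 to 124901418), a vitronectin receptor subunit that needs ITGAV, changed to a like degree, from 31.9, 32.4 and 32.0 CPM to 35.4, 36.7 and 38.6 CPM (0.20 ± 0.06, adjusted p = 0.0098), and its RPKM ratio to ITGAV was 0.614 ± 0.0186 and 0.612 ± 0.0292. Both rises are small. On RPKM without TMM scaling the ITGAV groups overlapped and neither gene was called with limma-trend, and ITGB5 missed the threshold without shtRF replicate 3 (adjusted p = 0.0664). The other beta partners of ITGAV besides ITGB1, ITGB3 and ITGB8, had at most 5 and 4 counts in any library.

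ITGA10, an alpha subunit of a collagen receptor with ITGB1, was at 0.876, 0.808 and 1.68 CPM in control and 2.78, 2.20 and 2.93 CPM in shtRF (log2 fold change 1.22 ± 0.23, adjusted p = 2.31e-04). The value of control replicate 3 lay closer to the shtRF libraries than those of the other control libraries did. ITGAE, which pairs with ITGB7 to bind E-cadherin on epithelium, was at 8.02, 7.77 and 10.3 CPM in control and 11.8, 12.7 and 11.3 CPM in shtRF (0.45 ± 0.10, adjusted p = 0.00136). It shares 7.6% of its exonic bases, mainly with GSG2 on the other strand, which did not pass. Its only known partner ITGB7 was at 22, 17 and 30 counts in control and 10, 8 and 10 in shtRF. The groups of ITGB7 did not overlap, but its log2 fold change of -1.15 ± 0.49 did not pass (adjusted p = 0.0672), and exons of other genes overlap 42.1% of its exons, mainly those of ZNF740 on the other strand, which fell by 0.57.

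A further 6 integrin genes were tested and did not pass, with intervals of 2 SE each way given here on the log2 scale. ITGA2 ran from -0.33 to -0.02 around -0.18 (adjusted p = 0.0712), with non-overlapping groups at 18.5, 16.2 and 17.3 CPM and at 15.5, 14.9 and 15.6 CPM, and it passed under upper quartile scaling (0.0307) and without control replicate 2 (0.0372). For ITGA5, the fibronectin receptor subunit, the range was -0.09 to 0.76, and for ITGA7, a laminin receptor subunit of muscle, -0.95 to 0.07. For ITGA9 it was -0.53 to 0.76, for the leukocyte subunit ITGAL -0.15 to 0.60 and for its partner ITGB2 -0.94 to 0.67. Apart from ITGA2 these genes had group means between 0.330 and 2.44 CPM, and differences inside the intervals were not detectable at this depth. ITGAL was at 2.09 ± 0.547 and 2.44 ± 0.270 CPM (SD, n = 3) beside PTPRC at a trace.

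**Figure D4:**
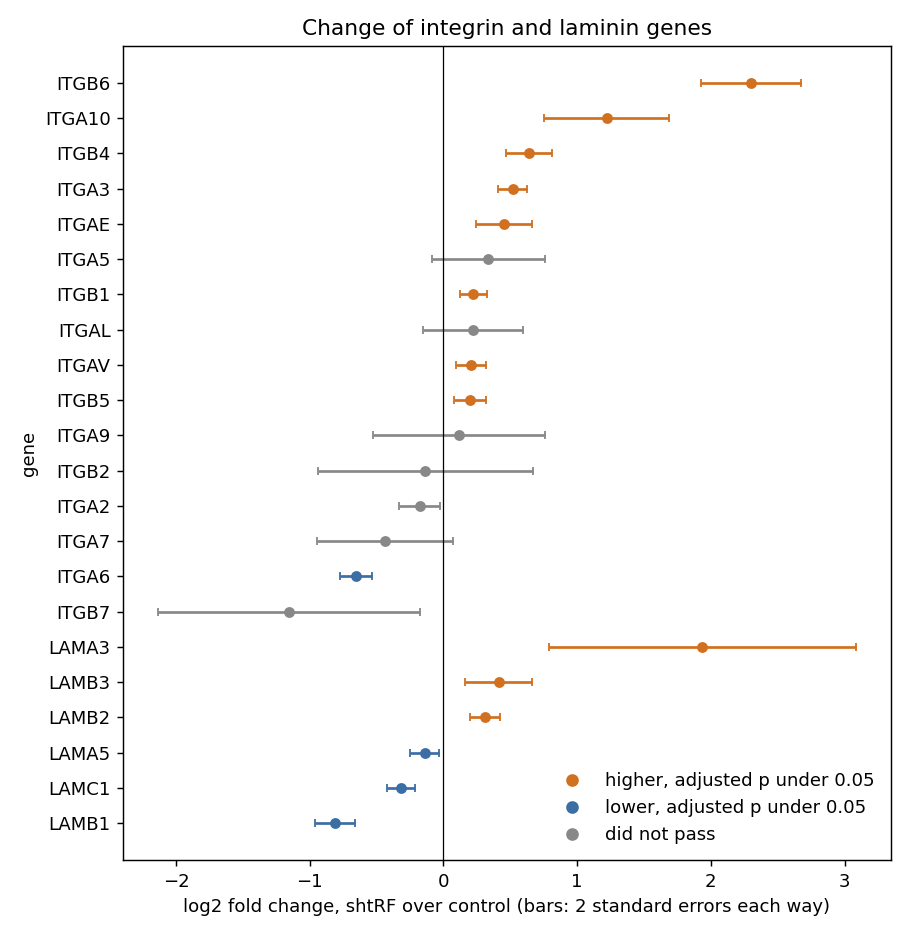
Log2 fold change of shtRF over control for each tested gene, with bars of 2 standard errors each way. Orange marks 11 genes higher and blue 4 genes lower at an adjusted p under 0.05, and grey marks 7 genes that did not pass. LAMA3, in orange, passed the low-count filter only through its shtRF libraries, and nothing is read from its fold change. ITGA6 and the laminin genes LAMB1, LAMC1 and LAMA5 are the genes called lower.

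Of the 24 known alpha and beta pairs, 13 had both genes tested. Both partners were higher in 5 pairs, which join ITGB1 with ITGA3, ITGA10 or ITGAV and ITGAV with ITGB5 or ITGB6. The pairs with ITGAV rest on its call, which was lost with limma-trend. ITGA6 was the only integrin gene called lower, so no pair could have both partners lower and any opposite pair had to contain ITGA6. There were 2 such opposite pairs, ITGA6 with ITGB1 and with ITGB4. These counts restate the calls of single genes, beside 20.6% of all tested genes called higher and 18.9% lower. In the other 6 pairs at least 1 partner did not pass. Pairs that share a gene are not independent of each other.

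The 15 genes below the filter had at most 21 counts in any library. They were the integrin genes ITGA1 (6 to 21 counts per library), ITGA4, ITGA8, ITGA11, ITGA2B, ITGAD, ITGAM, ITGAX, ITGB3 and ITGB8 and the laminin genes LAMA1, LAMA2, LAMA4, LAMB4 and LAMC3. ITGA4 had 0, 10 and 2 counts in control and 0 in each shtRF library. LAMA2, the laminin alpha chain of muscle, had 4 to 14 counts. Among these 15 genes, subunits that mark leukocytes (ITGAM, ITGAX and ITGAD), platelets (ITGA2B) or mesenchymal cells (ITGA8 and ITGA11) were thus near the limit of detection. The leukocyte subunit ITGAL and its partner ITGB2, given above, passed the filter in these epithelial cells.

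The order of levels per length in control ran LAMB2 (39.4 ± 2.96 RPKM), ITGB1 (30.8 ± 0.737), LAMC1 (10.1 ± 0.245), ITGA6 (8.75 ± 0.366), ITGAV (8.27 ± 0.367), ITGA3 (8.03 ± 0.379), LAMA5 (6.33 ± 0.263), ITGB5 (5.07 ± 0.0711), ITGB4 (3.68 ± 0.535) and LAMB1 (2.79 ± 0.156; SD, n = 3). Neighbours ITGA6 and ITGAV, and ITGAV and ITGA3, overlapped in their libraries. In shtRF ITGA3 (11.1 ± 0.624) took the third place and ITGA6 (5.36 ± 0.342) the ninth, where the neighbours ITGB5 and LAMA5, LAMA5 and ITGB4, and ITGB4 and ITGA6 overlapped. LAMC1 moved from the third to the fifth place at 7.79 ± 0.245 RPKM.

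To place the receptors beside the machinery they engage, 3 lists of other genes were counted in the same fit. The lists were chosen with earlier results of these data known. Their shares of called genes therefore describe the listed genes only and are not evidence about such genes in general. Among 36 tested genes for integrin adaptors and kinases, 10 were higher and 5 lower, or 41.7%, near the 39.5% of all genes, with a median log2 fold change of 0.07. TLN1, which encodes the integrin activator talin, was at 314 ± 7.62 and 305 ± 6.47 CPM, and PTK2, which encodes focal adhesion kinase, at 196 ± 12.2 and 189 ± 4.78 CPM; neither passed (adjusted p = 0.563 and 0.473). FERMT2, which encodes the other activator kindlin-2, was at 29.1 ± 1.79 CPM in control and 13.9 ± 0.293 CPM in shtRF (log2 fold change -1.06 ± 0.07, adjusted p = 8.38e-11). PTK2B, a kinase related to PTK2, rose by 0.89, the actin crosslinker ACTN4 by 0.44 and the talin-binding KANK2 by 0.43. ILK, a scaffold at the beta tails, rose by 0.17 (adjusted p = 0.0136). That call was lost without shtRF replicate 2 (0.0529) and with limma-trend on log2(RPKM + 1) (0.0521) and log2(RPKM + 0.1) (0.0553). Exons of other genes, mainly TAF10, overlap 78.5% of the ILK exons. ACTN4 shares 14.2% with CAPN12 and others.

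Among 24 tested basement membrane genes and laminin partners, 7 were higher and 7 lower, or 58.3% beside 39.5% of all genes, with a median of 0.08. DST, whose epithelial form links ITGB4 to keratin filaments, rose from 207 ± 4.41 to 603 ± 16.2 CPM (1.54 ± 0.05 on the log2 scale, adjusted p = 1.98e-15). DST has forms with other roles, which gene counts do not separate. NTN4, a laminin-related netrin, rose by 1.46, from 108 ± 4.61 to 298 ± 17.2 CPM. The neighbouring collagen IV genes COL4A5 and COL4A6 fell by 0.98 and 1.80, from 107 ± 5.15 to 54.5 ± 2.04 CPM and from 25.4 ± 1.69 to 7.29 ± 0.338 CPM. DAG1, which encodes the laminin receptor dystroglycan, and CD151, a tetraspanin of laminin-binding integrins, did not pass (log2 fold changes 0.08 ± 0.06 and 0.08 ± 0.06). Without shtRF replicate 1 the number called higher on this list was 4 in place of 7, as it was with limma-trend on log2(RPKM + 1).

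For other integrin ligands, 8 of 25 tested genes were higher and 7 lower, or 60% beside 39.5% of all genes, with a median of 0.21. With limma-trend on either RPKM scale 3 in place of 8 were called higher. THBS1, which encodes the matrix glycoprotein thrombospondin-1, rose from 925 ± 13.2 to 2529 ± 50.6 CPM (1.45 ± 0.05 on the log2 scale, adjusted p = 6.28e-15). TNC, which encodes tenascin-C, dropped from 464 ± 6.11 to 273 ± 7.60 CPM, and NPNT, which encodes the basement membrane ligand nephronectin, from 173 ± 9.69 to 98.9 ± 1.73 CPM. FBN1 fell by 0.97 at a low level. FN1, which encodes fibronectin, was low at 4.72 ± 0.538 and 3.97 ± 0.187 CPM and did not pass (adjusted p = 0.131).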

How the data were processed

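MDA-MB-453 cells were sequenced in 6 libraries, 3 control and 3 shtRF, grouped by sample title. The authors deposited raw read counts per gene. Their processing notes name Trimmomatic 0.36, featureCounts from Subread 1.5.1, edgeR 3.12.1 and GRCh38; the aligner is not given in the sources used here. The authors also deposited RPKM values, of which the part used here held 4997 complete rows; all values of the 4991 genes matched by symbol equalled count over length and library total within a tolerance of 1e-06, so RPKM was recomputed from the counts.

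Counts were tested with edgeR 4.0.16 in R 4.3.3 (filterByExpr with a minimum count of 10, TMM factors, glmQLFit and glmQLFTest, group as the only term), with Benjamini-Hochberg adjustment over 19628 genes and a threshold of 0.05. The common dispersion was 0.00572. SEs came from the estimate and its F statistic. Scripts were tested on simulated data. DESeq2 1.42.0 and limma 3.58.1 served as alternatives, together with RLE and upper quartile factors, 2 other filters, halved counts, a replicate block and each library left out.

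The members and lists were chosen with earlier results of these data known. Of 111 list entries, 110 matched the table, 2 by an older symbol. The symbol rule matched 38 genes, of which 1 is not reported here and enters no count of members. Every other tested member was named, and from each list the 4 genes with the largest change at an adjusted p under 0.05 and a mean of at least 2 CPM, plus TLN1, FERMT2, ILK, PTK2, DAG1, CD151 and FN1. Upstream sequences are from RefSeq. Exon sharing was read from the coordinates of the count table, strand ignored. Marker lists covered luminal, basal, fibroblast, endothelial, leukocyte and platelet genes.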

Additional observations from a re-analysis of the deposited data

How the results depend on the processing

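The 22 tested genes gave 326 values under the alternatives. Direction and call stayed the same in 303, 19 lost a call, 2 gained one (ITGA2) and 2 turned direction. The turns were in genes that never passed: leaving out 1 library at a time, the log2 fold change ran from -0.047 to 0.217 for ITGA9, below 0 without shtRF replicate 1, and from -0.239 to 0.0181 for ITGB2, above 0 without control replicate 2. The lost calls were in ITGAE, ITGAV, ITGB5, LAMA3, LAMA5 and LAMB3. With limma-trend, 7 integrin and laminin genes on log2(RPKM + 1) and 6 on log2(RPKM + 0.1) were called higher in place of 11; the cause was not tested. LAMA3 and ITGB7 could not be tested with halved counts or with at least 10 counts in every library, as they fell below those filters. On the gene lists, 3 ligands in place of 8 were called higher on both RPKM scales, and on log2(RPKM + 1) 4 basement membrane genes in place of 7 were called higher and 3 adaptors in place of 5 lower.

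Without 1 library at a time, 9 to 11 of these genes were called higher and 3 or 4 lower. The change in share of the ITGB1 partners then ran from 9.99 to 10.7 percentage points for ITGA3, from -12.8 to -12.1 for ITGA6 and from 2.39 to 3.17 for ITGAV, and it ran from -3.49 to -3.30 for LAMB1 among beta chains. Leaving libraries out of these shares was added after seeing the data. With CPM in place of RPKM, which drops gene length, the change was -10.7 for ITGA6, 1.39 for ITGAV and -3.97 for LAMB1.

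Equal replicate numbers did not pair libraries: deviations from the group mean had correlations of 0.0185, -0.0029 and 0.0045 within the pairs. Under the replicate block, 11 of the integrin and laminin genes were called higher and 4 lower, and over all genes 4123 and 3776 in place of 4046 and 3704.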
